A study of Homo sapiens with 4 samples.

Results

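The genes described here are the proteasome assembly chaperones POMP, PSMG1, PSMG2, PSMG3, PSMG4, PSMD5, PSMD9, PSMD10 and PAAF1, together with the transcription factor NFE2L1. They were chosen by symbol, from what the proteins are known to do, though with earlier results of these data known. All 10 were among the 15037 genes of the count table and passed the filter on low counts. Poly(A) RNA of A549, an established epithelial cell line from a human lung carcinoma, grown in DMEM, was sequenced. One group of 2 libraries came from cells with a knockdown of PSME4 (PSME4 KD), which encodes a cap and activator of the proteasome core, and the other group of 2 from cells with a knockdown labelled RFP (control KD). The knockdown reagent, the time after it and any use of clones are not stated in the labels, nor whether replicates were separate cultures. The p-values therefore rest on replicate spread that may be technical.

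The 26S proteasome degrades ubiquitin-tagged proteins and consists of a barrel-shaped core particle (20S) capped by a regulatory particle (19S) with a base and a lid. Dedicated chaperones that are not part of the finished complex build it: the pairs PSMG1 with PSMG2 and PSMG3 with PSMG4 help form the ring of alpha subunits, POMP guides the beta subunits and the joining of unfinished cores and is itself degraded once the core is complete, and PSMD5, PSMD9, PSMD10 and PAAF1 bind ATPases of the base. NFE2L1 (also called NRF1 or TCF11) is a transcription factor of the endoplasmic reticulum membrane that is normally destroyed by the proteasome. When proteasome activity is short it is cut free, enters the nucleus and raises transcription of proteasome subunit genes as a partner of small MAF proteins.

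PSME4 itself was measured at 158 and 180 CPM (the count scaled by library size and TMM) in the control KD libraries against 75.3 and 85.1 CPM after its knockdown, a log2 fold change of −1.08 (SE 0.20, edgeR adjusted p = 0.000855). Depth was 11766371 and 11769392 counts in the control KD libraries and 15208588 and 14845701 in the PSME4 KD libraries. It thus differed between the groups, and its part in the results was not tested. All 6 epithelial markers of the line were in the table, with a summed level of 3700 to 5160 CPM. Most of the sum was KRT18 (2820 to 4120 CPM), while EPCAM (5.42 to 7.88 CPM) and KRT19 (1.71 to 3.78 CPM) were low. None of the 4 alveolar type II and none of the 3 endothelial markers were in the table. Of 5 immune markers, CD14 and CD68 were present, with a summed level of 28.5 to 33.8 CPM in control KD and 39.3 to 39.4 CPM in PSME4 KD, and PTPRC and CD3E were among those not in the table. Of 5 fibroblast markers 2 were present, with a summed level of 13.2 to 14 CPM in control KD and 18.0 to 20.7 CPM in PSME4 KD, and COL1A2, PDGFRB and DCN were not in the table. The 2 differed in direction: COL1A1 rose (log2 fold change 0.73, SE 0.24, edgeR adjusted p = 0.0479) and PDGFRA fell (−1.34, SE 0.43, edgeR adjusted p = 0.0453), and neither passed after a correction for the GC content of genes. The part of other cells in the results was not tested, and in bulk RNA fewer cells of a kind and less RNA per cell cannot be told apart.

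The core chaperones POMP and PSMG1 fell in the PSME4 KD libraries, and no member rose. The other 8 did not pass an adjusted p of 0.05 (quasi-likelihood test of edgeR, adjusted by Benjamini-Hochberg across 13497 genes). Of all genes tested, 6% fell, 4.56% rose and 10.6% passed in either direction. The members' log2 fold changes (PSME4 KD over control KD throughout) ran from −1.05 to 0.28 with a median of −0.23, beside a median of −0.00 over all genes tested, and 6 of the 10 were negative. Both PSME4 KD libraries lay on the same side of both control KD libraries for 6 members, 5 lower and 1 higher in PSME4 KD. Over all genes this held for 55%, and for 28.4% on the lower side. The 2 called decreases were among the chaperones of the core particle, but PSMG3, also one of these, had the highest value of the 10 (0.28). The 4 chaperones of the base lay between −0.25 and 0.01, and PSMD10 among them was lower in both PSME4 KD libraries. A difference between core and base chaperones was not tested.

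**Figure D1:**
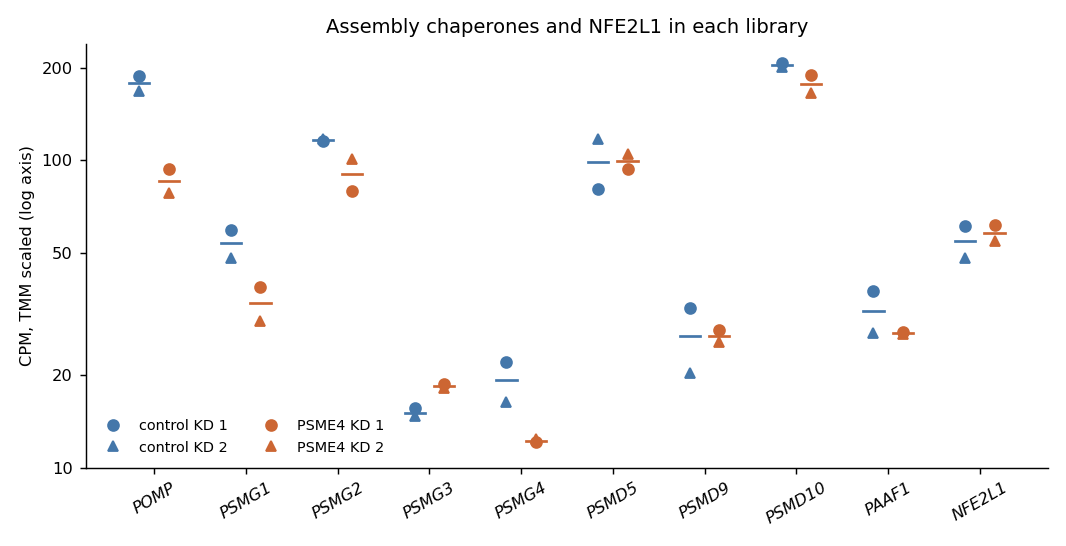
Level of each gene in each library, in TMM-scaled CPM on a log axis, with circles and triangles for replicates 1 and 2 and horizontal lines for group means. POMP, PSMG1, PSMG2, PSMG4 and PSMD10 are lower in both PSME4 KD libraries than in both control KD libraries, and PSMG3 is higher in both. The levels of NFE2L1, PSMD5, PSMD9 and PAAF1 overlap between the groups.

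To show the DNA in front of the members with the lowest fold changes, beside that of NFE2L1, 250 bases before the RefSeq start (GRCh38.p14) are given 5′ to 3′ on the strand of the gene. RefSeq also annotates starts further upstream for PSMG1 and PSMG4. Capitals mark matches on either strand to TGACNNNGC, the core of the antioxidant response element that NFE2L1 and NFE2L2 bind with small MAF proteins, to CCAAT, or to CCGGAAG, a motif of ETS factors.
POMP (chr13:28658880-28659129, plus strand): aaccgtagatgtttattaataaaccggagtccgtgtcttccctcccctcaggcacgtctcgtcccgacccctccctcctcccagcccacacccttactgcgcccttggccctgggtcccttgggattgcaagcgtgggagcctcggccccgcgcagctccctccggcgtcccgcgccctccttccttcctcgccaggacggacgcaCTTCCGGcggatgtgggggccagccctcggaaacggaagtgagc
PSMG1 (chr21:39183452-39183701, minus strand): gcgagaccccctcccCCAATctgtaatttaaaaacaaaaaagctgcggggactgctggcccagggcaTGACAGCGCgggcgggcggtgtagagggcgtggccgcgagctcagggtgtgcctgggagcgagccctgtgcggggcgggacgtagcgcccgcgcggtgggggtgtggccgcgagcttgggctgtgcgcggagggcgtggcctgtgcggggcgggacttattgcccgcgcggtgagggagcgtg
PSMG4 (chr6:3258697-3258946, plus strand): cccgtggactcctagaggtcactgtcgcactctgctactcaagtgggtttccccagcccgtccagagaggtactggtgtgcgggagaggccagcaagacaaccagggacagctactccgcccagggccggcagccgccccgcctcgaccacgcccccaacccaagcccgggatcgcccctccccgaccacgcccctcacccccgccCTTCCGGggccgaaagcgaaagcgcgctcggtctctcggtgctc
NFE2L1 (chr17:48048109-48048358, plus strand): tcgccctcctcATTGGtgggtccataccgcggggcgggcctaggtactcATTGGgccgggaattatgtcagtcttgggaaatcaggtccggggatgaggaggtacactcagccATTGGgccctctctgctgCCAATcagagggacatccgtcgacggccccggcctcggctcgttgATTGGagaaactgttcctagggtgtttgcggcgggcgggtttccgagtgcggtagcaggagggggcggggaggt
POMP held CCGGAAG on the opposite strand (CTTCCGG) from base −44 to −38 relative to the start, and so did PSMG4 at the same distance. PSMG1 held TGACAGCGC, a match to TGACNNNGC, from base −183 to −175, and CCAAT from −235 to −231. NFE2L1 held CCAAT, the motif of the NF-Y factor, 5 times in the stretch shown, printed as ATTGG where it lies on the opposite strand. The 250 bases before a second NFE2L1 start (chr17:48048531-48048780) held no match to any motif searched. Windows were found for 9 of the 10 members, 11 windows in all, each of 300 bases with 50 of them after the start. TGACNNNGC was in 4 of these windows, those of PSMG1, PSMG2, PSMD5 and PSMD9. It was in 13.3% of all 35116 RefSeq promoter windows, which were not filtered to the genes of the count table. CCAAT was in 4 of the 11 and in 34.6% of all windows, and CCGGAAG in 4 of the 11 and in 10.3% of all. The stricter form TGANTCAGC, which can overlap the first motif, was in the window of PSMD9 (TGAGTCAGC, from −227 to −219) and in 1.36% of all windows. CCGGAAG and TGANTCAGC were added to the search after the sequences were seen, and a match is a description of the letters only.

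POMP, the maturation protein of the core particle (chromosome 13, 28659130 to 28678959), showed the largest change of the 10 genes. It stood at 188 CPM in control KD 1 and 168 CPM in control KD 2, and at 93.5 CPM in PSME4 KD 1 and 78.1 CPM in PSME4 KD 2. Both PSME4 KD libraries were below both control KD libraries, and the libraries of a group lay close together. The group means were 178 ± 14.3 CPM and 85.8 ± 10.9 CPM (SD, n = 2), so POMP mRNA was 2.08-fold lower in PSME4 KD cells. The log2 fold change was −1.05 (SE 0.20, 95% interval −1.46 to −0.65, edgeR adjusted p = 0.00104), based on 4133 control KD and 2615 PSME4 KD counts. In the authors' deposited table POMP had a log2 fold change of 1.05 for control KD over PSME4 KD with an adjusted p of 4.24e-05, and an adjusted p of 0.0358 after their further adjustment. It was the 1 member under 0.05 by either of the authors' adjustments, where 6.46% of all rows were under 0.05 by the first.

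POMP has a transcript of low GC content, 34.6% in its longest GENCODE 29 transcript, in the lowest decile of the genes tested. The 536 genes within 2 percentage points of it had a median log2 fold change of −0.37, so genes of like GC content were lower as well. When every library was corrected for GC content, POMP was at −0.71 and still passed (edgeR adjusted p = 0.0164). The call did not hold in the fits without control KD 1 (−0.97, edgeR adjusted p = 0.198) and without PSME4 KD 2 (−0.93, edgeR adjusted p = 0.503), in which edgeR called 0 of 13497 genes. The 3 genes whose 4 library values, on the log2 scale and relative to their own control KD mean, lay nearest to those of POMP among 6840 other genes were ECHDC1, RPS24 and RIDA, at Euclidean distances of 0.0602, 0.0691 and 0.0699.

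PSMG1 and PSMG2 form the first of the chaperone pairs for the alpha ring, and PSMG1 fell. PSMG1 (chromosome 21, 39174769 to 39183514) had 59.4 CPM in control KD 1, 48.1 CPM in control KD 2, 38.7 CPM in PSME4 KD 1 and 30 CPM in PSME4 KD 2. The groups did not overlap, although in each of them replicate 1 and replicate 2 were further apart than for POMP on the log2 scale. PSMG1 mRNA was 1.57-fold lower in PSME4 KD cells, a log2 fold change of −0.65 (SE 0.21, 95% interval −1.08 to −0.21, edgeR adjusted p = 0.0472). It was −0.63 after the GC correction (edgeR adjusted p = 0.0396), with a GC content of 46.7%, at which the median change of 2004 genes was −0.00. The call is close to the threshold: with library size as the only scaling the adjusted p was 0.0504 by edgeR, by DESeq2 it was 0.0609, and the authors' deposited table gives 0.0799. Without control KD 1, PSME4 KD 1 or PSME4 KD 2 it did not pass either (−0.49, −0.84 and −0.47, with edgeR adjusted p-values of 0.267, 0.133 and 0.565).

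PSMG2 (chromosome 18, 12658738 to 12725740), the partner of PSMG1, had 115 and 117 CPM in control KD 1 and 2, and 79.3 and 101 CPM in PSME4 KD 1 and 2. The control KD libraries agreed closely and the PSME4 KD libraries lay below them, with PSME4 KD 2 the nearer. The log2 value was −0.37 (SE 0.20, 95% interval −0.77 to 0.04, edgeR adjusted p = 0.241), which did not pass, and it was −0.50 after the GC correction (edgeR adjusted p = 0.0663). The locus of PSMG2 overlaps the genes CEP76 and SPIRE1, and no source states whether the counting used strand, so reads may have been shared.

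Within a library the ratio of the partners does not depend on how libraries are scaled to each other, except through the 2 CPM added to each gene. The log2 ratio of PSMG1 to PSMG2, each as CPM + 2, was −0.93 and −1.25 in control KD 1 and 2, and −1.0 and −1.68 in PSME4 KD 1 and 2. The groups overlapped, and the difference of −0.25 had a two-sided exact permutation p of 0.667. With 2 libraries against 2 the smallest p that this test can give is 0.333. The difference was −0.27 without the added 2 CPM. Without PSME4 KD 2 the difference was 0.09, so its direction rested on that library.

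PSMG3 and PSMG4, the second chaperone pair, had values of opposite sign, and neither passed the threshold. PSMG4 (chromosome 6, 3254404 to 3268049) had 22.1 and 16.3 CPM in control KD 1 and 2 and 12.1 and 12.4 CPM in PSME4 KD 1 and 2. The PSME4 KD libraries agreed closely and lay below both control KD libraries, which differed by 0.44 on the log2 scale. Its log2 value of −0.65 (SE 0.24, 95% interval −1.14 to −0.15) was as large as that of PSMG1 but did not pass (edgeR adjusted p = 0.0810), based on 445 control KD and 373 PSME4 KD counts. The GC correction used the longest PSMG4 transcript, of 4603 bases, while the principal one has 838 bases. After this correction PSMG4 was at −0.78 and passed (edgeR adjusted p = 0.0200), so that 3 of the 10 members fell in that fit, where 5.22% of all genes fell. Without control KD 1 it was at −0.41, and without control KD 2 at −0.85 and past the threshold (edgeR adjusted p = 0.0449).

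PSMG3 (chromosome 7, 1567332 to 1570032) had 15.6 and 14.7 CPM in control KD 1 and 2 and 18.7 and 18.1 CPM in PSME4 KD 1 and 2. All values in PSME4 KD were above those in control KD, but the log2 value of 0.28 (SE 0.23, 95% interval −0.19 to 0.76) did not pass (edgeR adjusted p = 0.464). PSMG3 has the highest GC content of the members, 58.8%, where the median of 1451 genes was 0.30, and after the GC correction its value was 0.04. The log2 ratio of PSMG3 to PSMG4, each as CPM + 2, was −0.46 and −0.13 in control KD 1 and 2, and 0.56 and 0.48 in PSME4 KD 1 and 2. The groups did not overlap, and the difference of 0.81 had a two-sided exact permutation p of 0.333, the smallest that 2 libraries against 2 can give. The difference was 0.92 without the added 2 CPM. With any 1 library left out the difference stayed between 0.65 and 0.98.

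**Figure D2:**
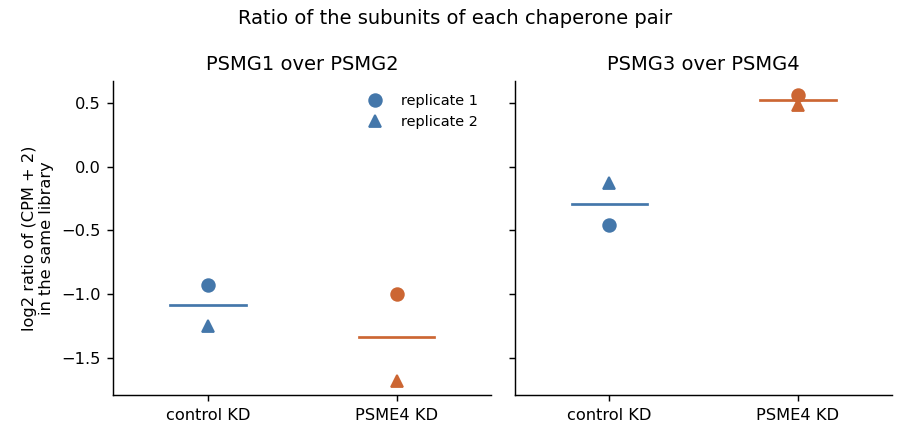
Log2 ratio of (CPM + 2) of PSMG1 over PSMG2 and of PSMG3 over PSMG4 in each library, with circles and triangles for replicates 1 and 2 and lines for group means. The PSMG3 to PSMG4 ratio is higher in both PSME4 KD libraries (0.56 and 0.48) than in both control KD libraries, while the PSMG1 to PSMG2 ratio overlaps between the groups.

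None of the 4 chaperones of the regulatory particle base passed the test. PSMD10, also known as gankyrin, an oncoprotein that binds the ATPase PSMC4 and also the retinoblastoma protein and MDM2, had 207 and 201 CPM in control KD 1 and 2 and 189 and 165 CPM in PSME4 KD 1 and 2. The groups did not overlap, but the log2 value was only −0.20 (SE 0.19, 95% interval −0.59 to 0.19, edgeR adjusted p = 0.536), and −0.04 after the GC correction. PSMD5, which holds the base subassembly of PSMC1, PSMC2 and PSMD2, had 80.6 and 117 CPM in control KD 1 and 2 and 93.5 and 105 CPM in PSME4 KD 1 and 2. Both PSME4 KD values lay between the control KD values, and the log2 value was 0.01 (SE 0.21, 95% interval −0.41 to 0.43).

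PSMD9, which binds PSMC3 and PSMC6, likewise lay between its control KD values of 33.1 and 20.3 CPM, at 28.0 CPM in PSME4 KD 1 and 25.7 CPM in PSME4 KD 2. Its control KD libraries differed by 0.70 on the log2 scale, the widest gap within a group for any member, and its value of 0.01 (SE 0.23, 95% interval −0.47 to 0.49) changed sign with the library left out, from −0.30 without control KD 2 to 0.40 without control KD 1. PAAF1, which binds the ATPase PSMC5 and can hold the regulatory particle off the core, had 37.5 and 27.4 CPM in control KD 1 and 2 and 27.5 and 27.1 CPM in PSME4 KD 1 and 2. Its PSME4 KD libraries sat at the level of control KD 2, and its value of −0.25 (SE 0.22, 95% interval −0.70 to 0.20) went to −0.01 without control KD 1. These intervals still allow a decrease of up to 0.70 for PAAF1, so similar levels in the groups were not shown. The loci of PSMD9, PSMD10 and PAAF1 overlap other annotated genes, ATG4A in the case of PSMD10 and COA4 in that of PAAF1.

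NFE2L1 mRNA (chromosome 17, 48048359 to 48061545) showed no change past the threshold. Its level was 61.2 CPM in control KD 1, 48.2 CPM in control KD 2, 61.7 CPM in PSME4 KD 1 and 54.6 CPM in PSME4 KD 2, so the groups overlapped and replicate 2 was the lower library in each. The log2 value was 0.09 (SE 0.20, edgeR adjusted p = 0.829), with a 95% interval of −0.33 to 0.50. The sign was not stable, with −0.10 after the GC correction and −0.07 to 0.27 in fits with 1 library left out. The genes nearest to NFE2L1 by the same distance were COX5A, P4HB and CNDP2, at 0.0131, 0.0279 and 0.0504. NFE2L1 is regulated mainly through its protein, by processing and degradation, which these libraries do not measure.

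**Figure D3:**
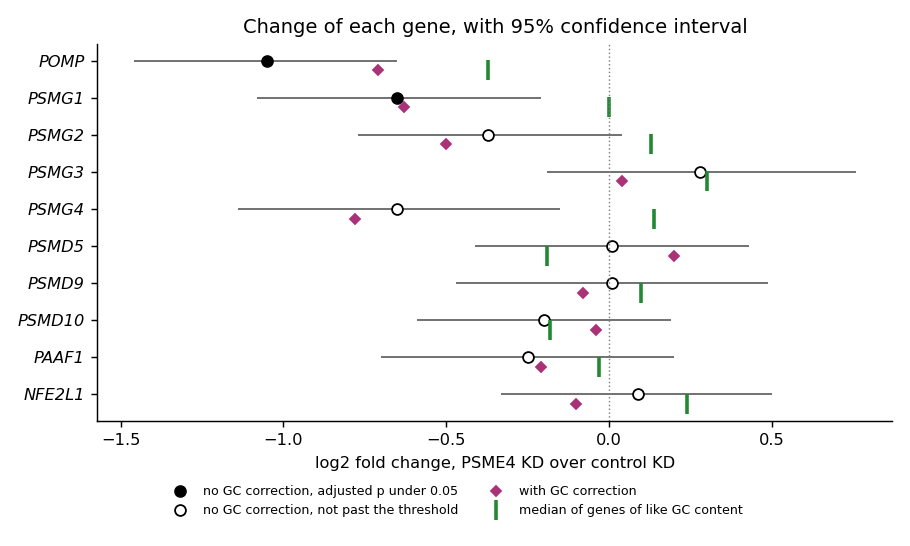
Log2 fold change of each gene (PSME4 KD over control KD) with its 95% interval, filled where the adjusted p was under 0.05, with diamonds for the value after the GC correction and bars for the median of genes within 2 percentage points of GC content. The intervals of POMP, PSMG1 and PSMG4 lie below 0, and POMP, at −1.05, is also below the median of −0.37 of genes of like GC content.

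Levels of different genes can be set beside each other only per length, here as CPM per kilobase of the longest transcript that GENCODE 29 tags as principal. In control KD, POMP (134 ± 10.7, SD, n = 2) and PSMD10 (132 ± 2.94) were highest and did not differ beyond their spread. PSMG2 came next at 68.8 ± 1.04 CPM per kilobase. PSMD5 (28.6 ± 7.37), PSMG1 (25 ± 3.73) and PSMG4 (22.9 ± 4.98) followed, with neighbours in this order within their spread. NFE2L1 (11.5 ± 1.92), PSMG3 (10.9 ± 0.442) and PSMD9 (9.60 ± 3.26) also lay within the spread of their neighbours, and PAAF1 was lowest at 6.50 ± 1.42, its libraries overlapping those of PSMD9. In PSME4 KD the order changed at the top, with PSMD10 at 115 ± 11 CPM per kilobase, above POMP at 64.5 ± 8.18, and PSMG2 at 53.4 ± 8.99, its libraries overlapping those of POMP. These per-length levels rest on 1 annotated transcript per gene, and any of the genes, PAAF1 among them, may have transcripts of other lengths. For PSMG4, POMP and PSMD9 the longest annotated transcript is longer than the one used. The PSMG4 transcript used has 838 bases, while its longest has 4603, so its place in this order depends on that choice.

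The subunits that these chaperones assemble moved in both directions. Of 14 subunits of the core particle 1 rose and 3 fell (28.6%, beside 10.6% of all genes). The median log2 fold change was 0.03, with a range of −0.80 to 0.66. The alpha subunits PSMA4 (−0.80, SE 0.20), PSMA3 (−0.66, SE 0.20) and PSMA2 (−0.65, SE 0.19), which belong to the ring that the PSMG pairs help form, fell. Of the beta subunits, which POMP guides, PSMB3 rose (0.66, SE 0.20), and PSMB4 (0.46, SE 0.19) did not pass, nor did the alpha subunit PSMA7 (0.45, SE 0.19). After the GC correction PSMA4 alone of these 4 called core subunits still passed (−0.67).

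Of 10 subunits of the base, PSMD1, its largest scaffold, fell (−0.89, SE 0.21), as did the ATPase PSMC1 (−0.66, SE 0.21), and none rose. These were 20% of the list, beside 10.6% of all genes. ADRM1, a ubiquitin receptor, was at 0.60 (SE 0.22) and the ATPase PSMC6 at −0.40 (SE 0.21), neither past the threshold. The median of the base was −0.08, and both decreases held after the GC correction (−0.81 and −0.69). Of 9 lid subunits PSMD8 (0.97, SE 0.19) and PSMD3 (0.65, SE 0.19) rose and PSMD12 (−0.62, SE 0.20) fell, with a median of −0.21. The called lid genes were 33.3% of their list, and with lists this short nothing is read from these shares. SEM1 (−0.52, SE 0.20) and PSMD14, the deubiquitinase of the lid (−0.38, SE 0.19), did not pass. Of the 3 inducible subunits none passed, and PSMB8 was at 0.52 (SE 0.26) and PSMB10 at 0.43 (SE 0.35).

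In all, 9 of 36 subunits passed (25%, beside 10.6% of all genes). The median control KD level was 157 CPM over the subunits and 20.3 CPM over all genes, and the part of this difference in the share called was not tested. After the GC correction 4 subunits passed, PSMD8 higher and PSMA4, PSMD1 and PSMC1 lower, beside 9.39% of all genes. In edgeR fits with 1 library left out, 5 of the 36 passed without control KD 2 and 0 without any of the other libraries, fits in which few genes of any kind were called (0 to 268 of 13497).

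Of 11 genes listed for the activation and turnover of NFE2L1, 0 passed by edgeR, beside 10.6% of all genes. Among the 11 are the protease DDI2, the deglycosylase NGLY1, the extraction ATPase VCP and the ubiquitin ligases SYVN1 and FBXW7. An unadjusted p under 0.05 by edgeR was found for 0 of the 11, beside 3530 of all 13497 genes. With so few genes, nothing about the list is read from these counts. NGLY1 (−0.35, SE 0.20) and VCP (0.34, SE 0.20) had the smallest p-values, and the range was −0.35 to 0.34 with a median of −0.02. The protease DDI2, which cuts NFE2L1 free, was at −0.32 (SE 0.26), from 11.1 and 9.97 CPM in control KD 1 and 2 and 7.82 and 8.99 CPM in PSME4 KD 1 and 2.

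Of 6 tested partners and relatives of NFE2L1, the small MAF genes MAFK and MAFF fell (33.3%, beside 6% of all genes called lower) and none rose. With 6 genes, nothing particular to the list is read from this share. MAFK had 69.5 and 61.7 CPM in control KD 1 and 2 and 20.7 and 37.0 CPM in PSME4 KD 1 and 2, a log2 fold change of −1.18 (SE 0.23, edgeR adjusted p = 0.00167). MAFF had 3.46 and 2.58 CPM in control KD 1 and 2 and 0.723 and 0.722 CPM in PSME4 KD 1 and 2, a log2 fold change of −2.05 (SE 0.44, edgeR adjusted p = 0.00385) from only 70 and 22 counts. Both groups were separate for both genes, and both decreases passed after the GC correction (−1.39 and −2.27). The third small MAF gene, MAFG, was at −0.07 (SE 0.21), with 38.7 and 36.0 CPM in control KD 1 and 2 and 32.6 and 38.6 CPM in PSME4 KD 1 and 2, so it did not share their direction past its spread. The related factors NFE2L2, which is active in these KEAP1-mutant cells, and NFE2L3 were at 0.51 (SE 0.21) and −0.50 (SE 0.22), and neither passed (edgeR adjusted p = 0.109 and 0.140). MAFF was at −2.24 to −1.82 and MAFK at −1.66 to −0.82 in fits with 1 library left out, but edgeR called neither without control KD 1, PSME4 KD 1 or PSME4 KD 2.

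Of 15 other proteins that bind or serve the proteasome, 1 rose and 1 fell (13.3%, beside 10.6% of all genes). UCHL5, a deubiquitinase of the regulatory particle, was the one that fell (−0.68, SE 0.22). TXNL1 (−0.52, SE 0.20) and the deubiquitinase USP14 (−0.46, SE 0.21) did not pass. UCHL5 (−0.36) did not pass after the GC correction. The median of this list was −0.14.

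**Figure D4:**
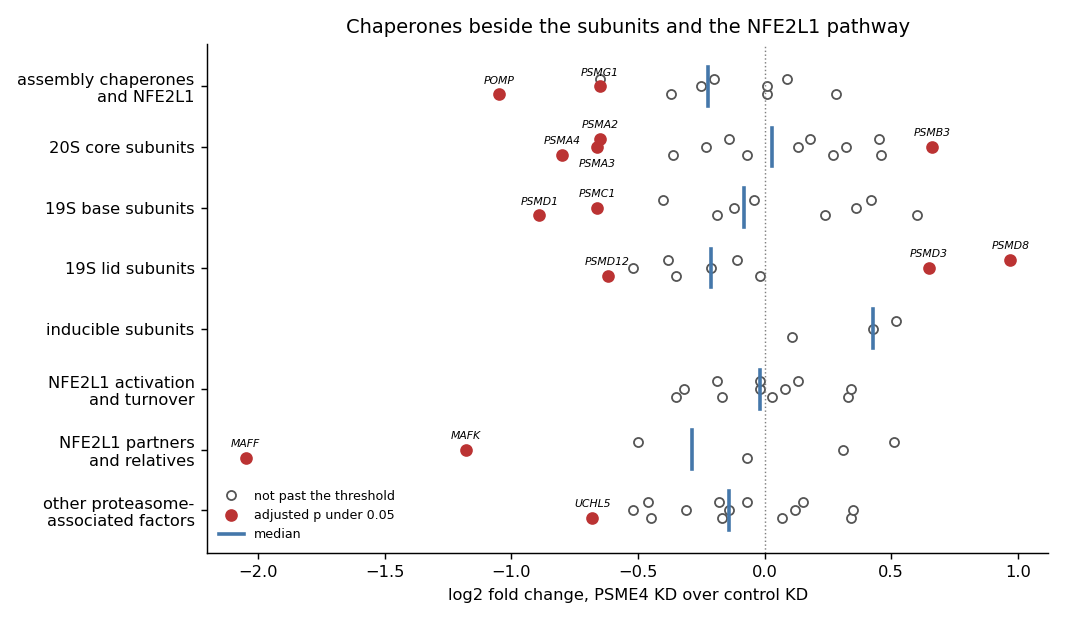
Log2 fold change (PSME4 KD over control KD) of the reported genes of each list, filled and named where the adjusted p was under 0.05, with a bar for the median of the list. Called genes lie on both sides of 0 in the core and the lid, and MAFF (−2.05), MAFK (−1.18) and POMP (−1.05) are the lowest.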

How the data were processed

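Oligo-dT selected RNA was prepared with Lexogen's SENSE kit, per the labels' protocols. Sample titles gave the groups and replicate numbers. The tools cutadapt, STAR and DESeq2 and the build hg38 are named, per the submitters' processing notes, without versions; read counter, strand setting and annotation were not given in the sources used here. This deposited table holds whole-number counts per gene, per the file headers, in rows with a largest count of at least 6. It also holds deposited signal values (counts divided by a size factor per library), a regularised log2 scale and the authors' log2 fold change with p-values; the values of the authors' comparison are printed only where named, and the others were not used.

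In R 4.3.3, edgeR 4.0.16 was run on the raw counts: filterByExpr (13497 genes), TMM, glmQLFit and glmQLFTest on the group with 2 residual degrees of freedom, and Benjamini-Hochberg adjustment over all tested genes. SE is the log2 value over the root of F, and 95% intervals use the t distribution with the moderated degrees of freedom. The biological coefficient of variation was 15.3%. The GC correction subtracts a lowess trend (span 0.4) of each library on the GC content of the longest GENCODE 29 transcript, known for 96.2% of tested genes. Partner ratios used CPM with 2 added. Nearest genes were sought among those with a mean of at least 20 CPM, on log2 CPM with a prior count of 2. Named genes beside the members are those of the lists that passed and, per list, the 2 lowest in p that did not; MAFG, DDI2 and the marker genes were named besides. A list gene is left out of the text and the plots, while counts and medians of its list include it. Members, lists and alternatives, the GC correction included, were chosen with earlier results of these data known. Alternatives used DESeq2 1.42.0, limma 3.58.1, other scalings, filters and thresholds, the replicate block and each library left out. Steps were tested on simulated data. Gene positions and promoters are from RefSeq on GRCh38.p14.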

Additional observations from a re-analysis of the deposited data

How the results depend on the processing

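The number of members past the threshold was 2 in the reported fit. It was 1 with library size as the only scaling and 1 by DESeq2, where PSMG1 did not pass, beside 1617 and 1146 of all 13497 genes. It was 4 with the replicate block and the GC correction together, beside 1613 of all genes, and 0 against a log2 change of 0.58. With 1 library left out it was 0 to 3. Over all genes 1426 passed, 2240 at an adjusted p of 0.10, 115 against a log2 change of 0.58, and 0 to 1077 with 1 library left out. The 2 fits with 0 calls, without control KD 1 and without PSME4 KD 2, had 2955 and 1337 genes at an unadjusted p under 0.05 by edgeR. Each of the smaller fits has 1 residual degree of freedom, and the prior degrees of freedom that edgeR estimated ran from 3.57 to 28.0, beside 26.9 in the fit of all libraries. A group left with 1 library is assumed to vary like the other. With library size as the only scaling 52.8% of called genes were higher, beside 43.2% in the reported fit, and the median of all genes moved to 0.04.

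Of the proteasome subunits 9 passed in the reported fit, 4 after the GC correction, 0 against a log2 change of 0.58, and 0 to 5 with 1 library left out. The lists on NFE2L1 and the list of other proteins that bind or serve the proteasome were counted together, with 32 tested genes. Of these 4 passed (12.5%, beside 10.6% of all genes). By DESeq2, which gave MAFF no adjusted p, 2 passed, beside 1146 of all 13497 genes. Only 1 passed against a log2 change of 0.58, beside 115 of all genes. With 1 library left out the PSMG3 to PSMG4 difference kept its direction. That of PSMG1 to PSMG2 ran from −0.59 to 0.09, reversed without PSME4 KD 2.

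POMP, PSMG1, PSMG2, PSMG4, PSMD10 and PAAF1 stayed negative and PSMG3 positive in all 14 alternatives. PSMG2 passed in 1 of them, the replicate block with the GC correction (−0.50, adjusted p = 0.0412, edgeR). The others changed sign: with 1 library left out PSMD5 ran from −0.23 to 0.30, PSMD9 from −0.30 to 0.40 and NFE2L1 from −0.07 to 0.27. With the GC correction PSMD9 was at −0.08 and NFE2L1 at −0.10, and with the block and the GC correction at −0.05 and −0.11. The cause was not tested. The labels do not say that replicate numbers pair libraries; deviations of same-numbered libraries had a correlation of −0.04 across 8748 genes, and the replicate block gave 1554 calls.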
